A study of Mus musculus with 4 samples.

Results

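Matricellular genes were examined as a group in spatial transcriptomes of injured muscle that forms ectopic bone. The group holds 10 genes chosen by symbol, of 32285 features in each count table: the tenascins Tnc and Tnn, the thrombospondins Thbs1, Thbs2 and Thbs4, periostin (Postn), osteonectin (Sparc), Cthrc1, and the CCN genes Ccn1 and Ccn2. All 10 symbols were found once in the features. The data were 4 sections of tibial muscle placed on arrays of barcoded capture spots, 1 section each from uninjured muscle (day 0) and from muscle 1, 3 and 7 days after injury with cardiotoxin, a snake toxin that kills muscle fibres. Every section, the uninjured one included, came from Nse-Bmp4 mice on a C57BL/6 background aged 6 to 8 weeks, in which the rat neuron-specific enolase promoter drives a murine Bmp4 transgene. No section without the transgene was analysed here, so what the transgene adds to the response to injury cannot be told apart. According to the labels 3 muscles were mixed for a group, and how they relate to a section was not settled here.

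Matricellular proteins are secreted into the extracellular matrix, where they bind collagens, growth factors and cell receptors rather than bear load. Most are scarce in resting adult tissue and are made again in wounds and in growing cartilage, bone and tendon. Tenascins and periostin engage integrins, thrombospondin-1 binds the receptors CD47 and CD36 and can release TGF-beta from its latent form, and the CCN genes are known targets of the YAP/TEAD and TGF-beta pathways.

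Promoters are shown for members whose sequence bears on that last point. The letters GGAATG, bound by TEAD factors, were searched on both strands in the 250 bases before each start site of RefSeq (build GRCm38.p6, the same assembly as the mm10 named in the submitters' processing notes), and matches are in capitals. Ccn2, Thbs1 and Cthrc1 had no promoter entry and were not searched. Matches were found upstream of 3 of the 7 members with an entry, Ccn1, Tnn and Thbs4, where the Thbs4 promoter holds 2 overlapping copies on the reverse strand. Of 32851 mouse promoters, 12.6% hold the letters. The upstream sequence of Tnc is set beside them as the other tenascin and has no match. Tnn is cut to the 133 bases outside the span of the gene. A match describes the letters and not a bound site. All 4 genes lie on the minus strand, and the sequences read from 5′ to 3′ towards the start site.
Ccn1, chr3:145649986-145650235: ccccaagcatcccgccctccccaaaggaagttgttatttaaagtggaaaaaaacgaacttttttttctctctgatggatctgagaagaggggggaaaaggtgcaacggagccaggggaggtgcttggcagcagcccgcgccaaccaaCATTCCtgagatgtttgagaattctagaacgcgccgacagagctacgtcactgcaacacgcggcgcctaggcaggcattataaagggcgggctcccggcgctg
Thbs4, chr13:92794819-92795068: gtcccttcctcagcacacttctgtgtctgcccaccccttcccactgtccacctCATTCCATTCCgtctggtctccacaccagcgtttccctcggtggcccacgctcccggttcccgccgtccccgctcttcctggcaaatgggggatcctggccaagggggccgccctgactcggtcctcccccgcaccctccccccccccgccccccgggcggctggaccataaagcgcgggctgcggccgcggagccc
Tnn, chr1:160153693-160153825: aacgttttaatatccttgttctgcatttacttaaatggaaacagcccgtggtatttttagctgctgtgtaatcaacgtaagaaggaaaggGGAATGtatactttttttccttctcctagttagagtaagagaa
Tnc, chr4:64047016-64047265: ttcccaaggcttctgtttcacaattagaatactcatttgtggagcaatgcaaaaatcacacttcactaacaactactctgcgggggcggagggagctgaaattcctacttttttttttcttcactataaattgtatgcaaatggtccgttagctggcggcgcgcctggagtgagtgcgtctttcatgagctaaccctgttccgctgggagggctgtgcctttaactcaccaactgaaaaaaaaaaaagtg

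The sections held from 2107 to 3032 spots and from 16777832 to 56113066 UMIs (unique molecular identifiers, each counted as 1 captured RNA), with the lowest total on day 1. Levels are given as CPM, the UMIs of a gene per 1e6 UMIs of its section, with exact Poisson intervals at 95%. With 1 section per day there was no spread between animals and no test could be made, so every interval covers counting error only and a difference between days describes those sections. A spot covers several cells, and a change in the number of cells of a type and a change of RNA per cell cannot be told apart. The adult myofibre list accounted for 22.8% of the UMIs on day 0, 12.0% on day 1, 7.35% on day 3 and 13.3% on day 7, as is typical of skeletal muscle RNA. The total against which a gene is set therefore moved with the days: the median log2 ratio to day 0 over all features was 0.19 on day 1, 0.56 on day 3 and 0.65 on day 7, and TMM factors (trimmed mean of M-values, a scaling by the bulk of genes) brought it to -0.02, 0.01 and 0.05.

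Most members were higher on days 3 and 7 than on day 0, and they were divided on day 1. Their UMIs together came to 2003 CPM on day 0, 1124 on day 1, 3206 on day 3 and 6258 on day 7, and Sparc alone made up most of the sum on day 0. On day 1, 5 of the 10 members were at least 2-fold higher than on day 0, against 17.8% of all features tested, and 2 members were at least 2-fold lower, against 10.7%. The 5 were Tnc, Thbs1, Thbs4, Ccn1 and Cthrc1. Cthrc1 rested on 63 UMIs on day 1 and 68 on day 0, and the counting interval of its 2.42-fold ratio, 1.69 to 3.46, includes 2-fold. Tnn had no ratio on day 1, since it was at or under 3 UMIs in both sections. On day 3, 9 of 10 members were at least 2-fold higher than on day 0 (32.4% of features), and none was 2-fold lower (8.66%). On day 7 again 9 of 10 were at least 2-fold higher (32.8%) and none 2-fold lower (2.18%). The median log2 ratio to day 0 was 1.28 over 9 members on day 1, 3.07 over 10 members on day 3 and 3.56 on day 7, on the CPM scale. These comparisons share the day 0 section and are not independent of each other.

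Between neighbouring days the step from day 1 to day 3 took in most members. From day 1 to day 3, 8 of 10 members were at least 2-fold higher (17.1% of features) and none was 2-fold lower (5.72%), with a median log2 ratio of 2.34 against 0.34 for all features. From day 3 to day 7, 4 members, Tnn, Thbs2, Sparc and Cthrc1, were at least 2-fold higher (16.6% of features), and 1, Thbs1, was at least 2-fold lower (11.5%). The median log2 ratio of that last step was 0.84 for the members and 0.09 for all features. The plot of section levels shows that the members did not share 1 time course: Tnc, Tnn, Thbs2, Postn, Sparc and Cthrc1 were highest on day 7, and Thbs1, Thbs4 and Ccn2 were highest on day 3. Ccn1 was highest on day 3 in CPM and on day 1 with TMM factors.

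**Figure D1:**
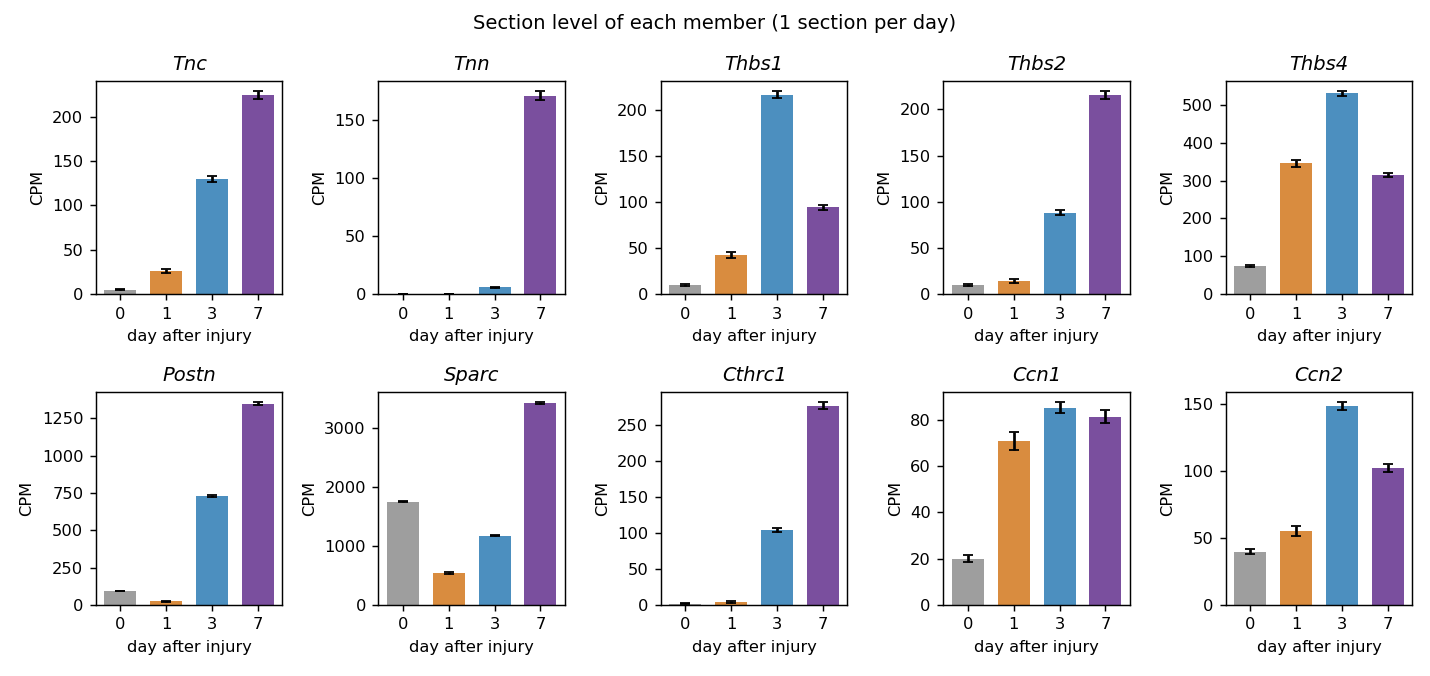
Level of each member in the 4 sections, in CPM (y axis, from 0, a scale of its own for each gene) by day after injury (x axis), with 1 section per day and exact Poisson 95% intervals as error bars. Thbs1 stands at 216 CPM on day 3 and 94.3 on day 7, while Tnc, Tnn, Thbs2, Postn, Sparc and Cthrc1 are highest on day 7.

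**Figure D2:**
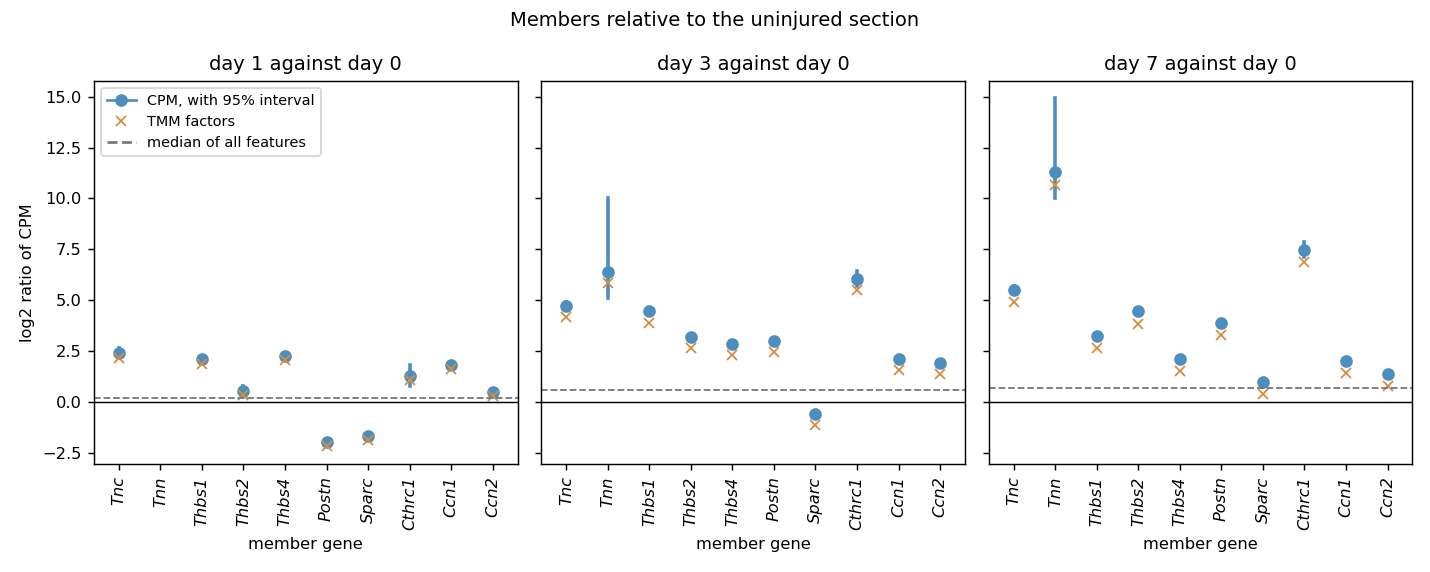
Log2 ratio of CPM to the day 0 section (y axis) for each member (x axis) on days 1, 3 and 7, with 95% counting intervals as lines, the same ratio under TMM factors as crosses, and the median over all features as a dashed line. Tnn is drawn with its day 0 count entered at 3 UMIs and has no ratio on day 1, and Postn and Sparc lie below 0 on day 1.

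The tenascins are large glycoproteins that loosen the attachment of cells to matrix. Tnc (ENSMUSG00000028364, chr4:63959785-64047015) had 4.97 CPM (4.33 to 5.67) on day 0, 25.9 (23.5 to 28.5) on day 1, 130 (127 to 133) on day 3 and 224 (220 to 229) on day 7. Each section lay above the one before it, with no overlap of intervals. Tnc was 5.22-fold higher on day 1 than on day 0, a further 5.00-fold higher on day 3 than on day 1, and 1.73-fold higher on day 7 than on day 3.

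Tnn (ENSMUSG00000026725, chr1:160085029-160153692), a tenascin known from periosteum and the matrix around bone, was close to absent early. It had 2 UMIs on day 0 and 0 UMIs in the 2667 spots of day 1, a count that leaves room for up to 0.112% of spots, then 319 UMIs on day 3 and 7128 on day 7. In CPM these were 0.046, 0, 5.68 and 170. Its level on day 3 was 31.8-fold higher than on day 1 with day 1 set to a floor of 3 UMIs in the section. The lower counting limit of that ratio, from the 0 UMIs of day 1, was 25.7. From day 3 to day 7 it was 30.0-fold higher (26.8 to 33.6), the largest step of a member between those days. Against the 2 UMIs of day 0 as counted, the day 7 ratio was 3738, with a log2 counting interval from 10.01 to 14.91. With day 0 entered at 3 UMIs the ratio was 2492. So Tnc was present in the uninjured section and higher at each of the 3 later days, whereas nearly all Tnn RNA belonged to the last step.

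Chondrogenic markers were, like Tnn, far higher on day 7 than on day 3. The sum of their list, mostly Sox9 on days 1 and 3, was lower on day 3 than on day 1. The list of 10 chondrogenic genes, among them Sox9, Col2a1 and Acan, summed to 5.72 CPM on day 0, 29.0 on day 1, 16.9 on day 3 and 1623 on day 7. Sox9, the transcription factor that starts the cartilage programme, carried 458 of its 486 UMIs on day 1 and 877 of 947 on day 3. Snorc was at 0 UMIs on days 0, 1 and 3 and had 1888 on day 7. From day 1 to day 3, when Tnn went from 0 to 319 UMIs, 4 of the 6 list genes that could be compared were at least 2-fold lower (5.72% of all features). None was 2-fold higher (17.1%). Those 4 genes did not include Sox9 and had few UMIs on day 1, near the floor of 3, so their direction is not settled. All 10 genes were at least 2-fold higher on day 7 than on day 3 (16.6% of all features). The part of chondrogenic RNA in the day 7 level of Tnn was not tested.

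The thrombospondins are trimeric or pentameric matrix glycoproteins. Thbs1 (ENSMUSG00000040152, chr2:118111876-118127133), also stored in platelets, had 9.94 CPM (9.03 to 10.9) on day 0, 42.0 (39.0 to 45.2) on day 1, 216 (213 to 220) on day 3 and 94.3 (91.4 to 97.3) on day 7. It peaked on day 3, where it was 21.8-fold higher than on day 0, and was 2.30-fold lower on day 7 than on day 3. Thbs2 (ENSMUSG00000023885, chr17:14665500-14694262), its closest relative and an inhibitor of angiogenesis, had 9.82 CPM (8.92 to 10.8) on day 0, 14.2 (12.5 to 16.2) on day 1, 88.3 (85.9 to 90.8) on day 3 and 215 (211 to 220) on day 7. Thbs1 had the larger ratio to day 0 on days 1 and 3, and Thbs2 on day 7. For Thbs1 and Thbs2 these ratios of CPM were 4.23 and 1.45 on day 1, 21.8 and 8.99 on day 3, and 9.49 and 21.9 on day 7.

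Thbs4 (ENSMUSG00000021702, chr13:92751586-92794818), a pentameric thrombospondin of tendon and muscle matrix, had 73.1 CPM (70.6 to 75.7) on day 0, 346 (337 to 355) on day 1, 530 (524 to 536) on day 3 and 315 (310 to 321) on day 7. It was already 4.73-fold higher on day 1 than on day 0, and day 1 stood above day 7 with separate intervals. From day 3 to day 7 it was 1.68-fold lower.

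Postn and Sparc were lower on day 1 than on day 0 and highest on day 7. Postn (ENSMUSG00000027750, chr3:54359267-54391041), which binds collagen I and integrins and is known from periosteum, had 92.2 CPM (89.4 to 95.1) on day 0, 23.3 (21.1 to 25.7) on day 1, 728 (721 to 735) on day 3 and 1349 (1338 to 1361) on day 7. It was 3.96-fold lower on day 1 than on day 0, then 31.2-fold higher on day 3 than on day 1. Sparc (ENSMUSG00000018593, chr11:55394159-55420080), a calcium- and collagen-binding protein of bone and other tissues, had 1752 CPM (1739 to 1764) on day 0, 543 (532 to 554) on day 1, 1171 (1162 to 1180) on day 3 and 3430 (3412 to 3447) on day 7. It was 3.23-fold lower on day 1 than on day 0, still lower on day 3 (log2 ratio -0.58 in CPM and -1.13 with TMM factors, where it passes 2-fold), and 1.96-fold higher on day 7. It was the 1 member that missed 2-fold on day 7.

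Several marker lists were lower on day 1 as well. The fibroblast/MSC list of 6 genes, Pdgfra, Prrx1, Dcn, Lum, Col3a1 and Col6a3, summed to 3453 CPM on day 0, 529 on day 1, 2775 on day 3 and 5276 on day 7, and 4 of its 6 genes were at least 2-fold lower on day 1 than on day 0. So were 3 of 5 endothelial genes, 2 of 5 smooth muscle/pericyte genes and 5 of 9 adult myofibre genes, beside 10.7% of all features. Col3a1 alone held 105765 of the 151492 fibroblast/MSC-list UMIs on day 0 and 113081 of 155706 on day 3. Within the day 1 section the ratio of Sparc was 2.91 in fibroblast/MSC-rich spots, 2.93 in adipocyte-rich spots and 2.23 in endothelial-rich spots. On day 3 none of the 6 fibroblast/MSC genes was 2-fold higher than on day 0 (32.4% of all features), while Postn was 7.89-fold higher. The part of these cells' RNA in the day 1 levels of Postn and Sparc was not tested.

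Cthrc1 (ENSMUSG00000054196, chr15:39076932-39087121), a secreted protein of activated fibroblasts and of bone, had 1.55 CPM (1.204 to 1.97) on day 0, 3.75 (2.89 to 4.80) on day 1, 103 (101 to 106) on day 3 and 276 (271 to 281) on day 7. These levels rest on 68 and 63 UMIs in the first 2 sections and on 5793 and 11560 in the last 2. Cthrc1 was 27.5-fold higher on day 3 than on day 1 and 178-fold higher on day 7 than on day 0. Among the members only Tnn had a larger ratio of day 7 to day 0.

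The CCN genes differed from each other in time. Ccn1 (ENSMUSG00000028195, chr3:145646971-145649985), an early-response gene also called Cyr61, had 20.0 CPM (18.7 to 21.4) on day 0, 70.9 (66.9 to 75.0) on day 1, 85.5 (83.1 to 87.9) on day 3 and 81.5 (78.8 to 84.3) on day 7. It was 3.54-fold higher than on day 0 already on day 1, and the intervals of days 3 and 7 overlapped. Its log2 ratio of day 3 to day 1 was 0.27 in CPM and -0.07 with TMM factors, so that step has no settled direction and neither has the order of the 3 injured sections. Ccn2 (ENSMUSG00000019997, chr10:24595442-24598683), also called CTGF, had 39.7 CPM (37.9 to 41.6) on day 0, 55.1 (51.6 to 58.8) on day 1, 148 (145 to 152) on day 3 and 102 (99.0 to 105) on day 7. In contrast to Ccn1, it was 1.39-fold higher on day 1 than on day 0 and 2.69-fold higher on day 3 than on day 1. Its ratio of day 7 to day 0 was 2.57 in CPM, and with TMM factors its log2 ratio was 0.75, under 2-fold.

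Section totals do not say how widely a gene was found, so each spot was thinned to 2000 UMIs, which left out 17 spots on day 0, 513 on day 1, 9 on day 3 and 84 on day 7. The expected share of spots with a Tnc UMI was 0.836% (exact binomial interval 0.475 to 1.30) on day 0, 4.78% (3.92 to 5.77) on day 1, 14.3% (13.1 to 15.6) on day 3 and 23.2% (21.7 to 24.8) on day 7, against 6.88%, 11.6%, 50.7% and 55.3% of spots without thinning. Postn was found in 15.2%, 4.44%, 45.4% and 61.0% of thinned spots in the same order. Tnn reached 0.733% (0.457 to 1.10) on day 3 and 19.1% (17.7 to 20.6) on day 7. The order of the days was the same in thinned shares as in CPM for these 3 genes.

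Sparc differed. Its thinned share was 92.8% (91.6 to 93.9) on day 0 and 92.4% (91.4 to 93.3) on day 7, with overlapping intervals, although its CPM was 1.96-fold higher on day 7. The 10% of spots with most Sparc held 30.2% of its UMIs on day 0 and 46.5% on day 7, while the deepest 10% of spots held 18.7% and 24.9% of all UMIs. In other words the gene was found nearly everywhere in both sections, and on day 7 more of its RNA sat in a small share of spots.

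**Figure D3:**
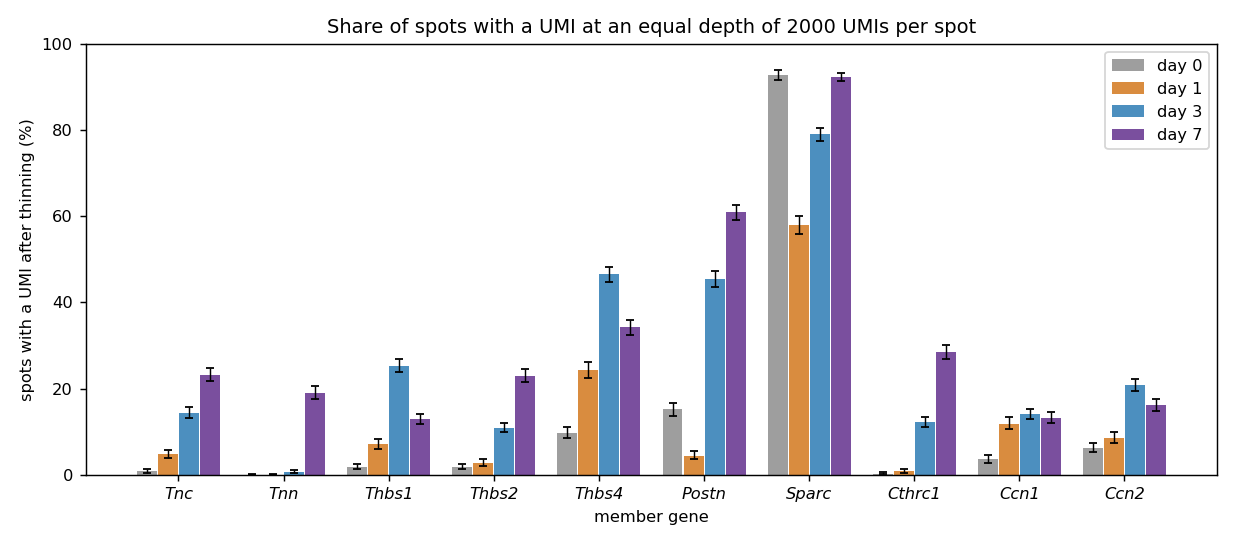
Expected share of spots with at least 1 UMI (y axis, percent) for each member (x axis) and day (bar colours) after thinning every spot to 2000 UMIs, with exact binomial 95% intervals as error bars. Sparc stands at 92.8% on day 0 and 92.4% on day 7, and Tnn goes from 0.733% on day 3 to 19.1% on day 7.

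Where in a section the members lay was read from 13 marker lists. For each list, the 10% of spots with the highest share of its UMIs were set against the other spots of the same section, over spots of at least 2000 UMIs, and the ratio of member CPM was taken. Spots of 1 section are not replicates, and the ratios carry counting intervals only. On day 0 the members already had different places. Thbs4 had 305 CPM in spots rich in tendon RNA and 49.0 elsewhere, a ratio of 6.23 (5.80 to 6.69), while Postn had 294 CPM in spots rich in fibroblast/MSC RNA and 70.4 elsewhere, a ratio of 4.18 (3.91 to 4.47). Thbs2 was also highest in the fibroblast/MSC-rich spots, with a ratio of 4.99 (4.07 to 6.10), and Tnc in the tendon-rich spots, with a ratio of 4.66 (3.46 to 6.22). In the top 5% of tendon-rich spots the ratios were 10.4 for Thbs4 and 8.03 for Tnc. Fmod, a matrix gene of the tendon list, made up 706 of its 1324 UMIs on day 0. On day 1 it made up 1463 of 1928, and on day 3 5663 of 10908. Tendon-rich spots were thus chosen mostly by 1 gene and need not be tendon.

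On day 1, Thbs4 and Thbs1 were highest in spots rich in different lists. The tendon-rich spots held 54.4% of all Thbs4 UMIs and 12.0% of all UMIs, with 1610 CPM against 184 elsewhere and a ratio of 8.75 (8.30 to 9.22). Ccn2 shared that place, with a ratio of 4.52 (3.94 to 5.19). Thbs1 had a ratio of 1.01 (0.77 to 1.31) there, or 1.65 in the top 5% of spots. In the spots rich in monocyte/macrophage RNA it had 169 CPM against 22.0 elsewhere, a ratio of 7.69 (6.45 to 9.16). Spots rich in platelet-list RNA gave Thbs1 a ratio of 7.10 (5.94 to 8.46), but 59.7% of them were the same spots as the macrophage-rich ones, and Pf4, which macrophages also express, held 9576 of the 9995 UMIs of that list while Gp9, a subunit of a platelet receptor, was at 0. The order of these 2 lists was not settled for Thbs1. The top 5% of spots gave 8.21 for the macrophage list and 9.30 for the platelet list. A total lacking mitochondrial, haemoglobin and adult myofibre genes gave 5.80 for both. Neutrophil markers were also higher in the macrophage-rich spots, at 371 against 131 CPM. Which of these cells made Thbs1 was not tested.

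On day 3, Thbs1 kept its macrophage-rich place with a smaller ratio, 2.69 (2.59 to 2.79), and 459 against 171 CPM. The monocyte/macrophage list itself was at 383 CPM on day 0, 1393 on day 1, 7364 on day 3 and 1922 on day 7, so the list and Thbs1 were both highest on day 3. Thbs4 again lay in the tendon-rich spots, with 1855 CPM against 381 and a ratio of 4.86 (4.75 to 4.98). Of those 302 spots, 93 were also adipocyte-rich. Spots rich in fibroblast/MSC RNA held more Postn (ratio 3.51, 3.43 to 3.58), Cthrc1 (3.40, 3.21 to 3.59) and Thbs2 (3.23, 3.05 to 3.43). Tnn had a ratio of 3.75 (2.95 to 4.73) in the fibroblast/MSC-rich spots and 3.58 (2.84 to 4.50) in the macrophage-rich spots, with overlapping intervals. Tnc had a like ratio in fibroblast/MSC-rich spots, 2.46 (2.33 to 2.59), and in spots rich in regenerating muscle genes such as Myog and Myh3, 2.66 (2.53 to 2.79).

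On day 7 most members were higher in spots rich in the skeletal and fibroblast/MSC lists. Spots rich in chondrogenic RNA had 997 CPM of Tnc against 141 elsewhere, a ratio of 7.08 (6.80 to 7.38), and 765 CPM of Tnn against 106, a ratio of 7.21 (6.88 to 7.56). Osteogenic-rich spots gave ratios of 7.91 (7.59 to 8.24) for Tnc and 7.08 (6.76 to 7.43) for Tnn. In the top 5% of spots Tnc and Tnn had ratios of 5.67 and 5.01 for the chondrogenic list and 7.67 and 6.06 for the osteogenic list. In the chondrogenic-rich spots Cthrc1 had a ratio of 6.00 (5.78 to 6.23), Thbs1 of 5.79 (5.42 to 6.17) and Thbs2 of 5.14 (4.92 to 5.37), or 2.69 for Thbs2 in the top 5% of spots. The ratios in the fibroblast/MSC-rich spots were as high or higher for Tnc, 7.67 (7.36 to 7.99), Tnn, 7.42 (7.08 to 7.78), Cthrc1, 6.67 (6.43 to 6.92), and Thbs2, 6.40 (6.14 to 6.67). For Thbs1 the ratio there was 4.86 (4.56 to 5.18), and in the top 5% of spots it was 4.63 against 4.29 in the chondrogenic-rich ones. The top 5% of tendon-rich and osteogenic-rich spots gave Thbs1 higher ratios, 5.70 and 5.36. Thbs4 was not higher in the chondrogenic-rich spots, with a ratio of 0.96 (0.90 to 1.02), or 0.73 when mitochondrial, haemoglobin and adult myofibre genes were left out of the total and 0.57 in the top 5% of spots. Thbs1 in macrophage-rich spots was at 104 against 92.7 CPM on day 7, a ratio of 1.12 in CPM and of 0.78 under that other total, so its place on day 1 and day 3 was no longer seen.

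The skeletal lists overlapped in space, so no member can be assigned to 1 of them. Of the 295 chondrogenic-rich spots on day 7, 227 were also osteogenic-rich, 150 tendon-rich and 132 fibroblast/MSC-rich. Chondrogenic-rich spots held 1856 CPM of the osteogenic list against 167 elsewhere, and 10648 CPM of the fibroblast/MSC list against 4697. Fmod made up 13655 of the 16229 tendon-list UMIs on day 7, and Col3a1 142942 of the 220704 fibroblast/MSC-list UMIs. Postn leaned most towards the fibroblast/MSC-rich spots, with a ratio of 5.47 (5.38 to 5.56) there and 2.76 (2.71 to 2.82) in the chondrogenic-rich spots, or 1.82 in the top 5% of them. All 10 members were lower in spots rich in adult myofibre RNA on days 3 and 7, from 0.05 for Tnc to 0.38 for Ccn1 on day 3 and from 0.10 for Tnn to 0.34 for Thbs4 on day 7. The list itself is part of the total there, which lowers the CPM of other genes. With mitochondrial, haemoglobin and adult myofibre genes left out of the total, Tnc and Ccn1 were at 0.07 and 0.50 on day 3. Tnn and Thbs4 were then at 0.12 and 0.35 on day 7.

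**Figure D4:**
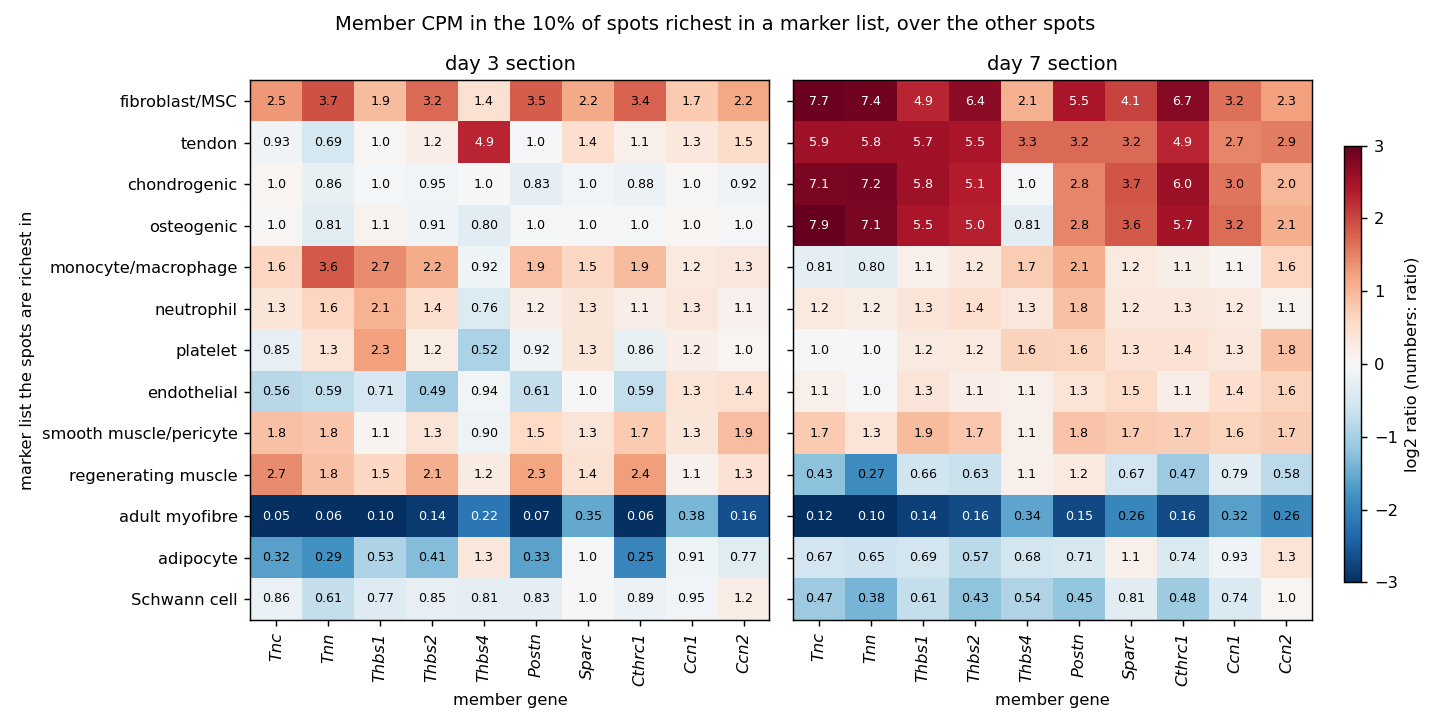
Ratio of member CPM (columns) in the 10% of spots richest in each marker list (rows) to the other spots of the section, on day 3 and day 7, with the ratio printed in each cell and its log2 as colour (cut at -3 and 3). Thbs4 stands at 4.9 and 3.3 in the tendon row on days 3 and 7. Tnc, Tnn, Thbs1, Thbs2 and Cthrc1 stand higher than Thbs4 in that row on day 7, from 4.9 to 5.9. Tnc and Tnn are at 7.1 and 7.2 in the chondrogenic row on day 7, and Tnc is at 7.9 in the osteogenic row and 7.7 in the fibroblast/MSC row.

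The likeness of members across spots was measured as Pearson's r of log-transformed UMIs per 10000, with no p-value, since the spots of a section share a library and differ in depth. Over the 45 pairs of members the median r was 0.11 on day 0 (2090 spots), 0.32 on day 3 (3020 spots) and 0.44 on day 7 (2948 spots), and on day 1 it was 0.10 over 36 pairs (2154 spots), since Tnn had no UMI. Pairs above 0.5 numbered 1, 0, 12 and 21 on days 0, 1, 3 and 7. The 1 such pair on day 0 was Postn with Sparc (r = 0.55), which was also the highest pair on day 7 (r = 0.78). Tnc and Tnn had an r of 0.28 on day 3 and 0.73 on day 7. On day 7, Thbs4 had r from 0.22 to 0.42 against the other members and Ccn2 had r from 0.26 to 0.42, and Thbs1 with Thbs4 had the second lowest r on day 3, 0.07. The value of r also depends on the number of UMIs of a gene, which was higher on days 3 and 7 for most members. Given the share of adult myofibre UMIs in a spot the medians were 0.07, 0.07, 0.16 and 0.22 over the 4 days.

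**Figure D5:**
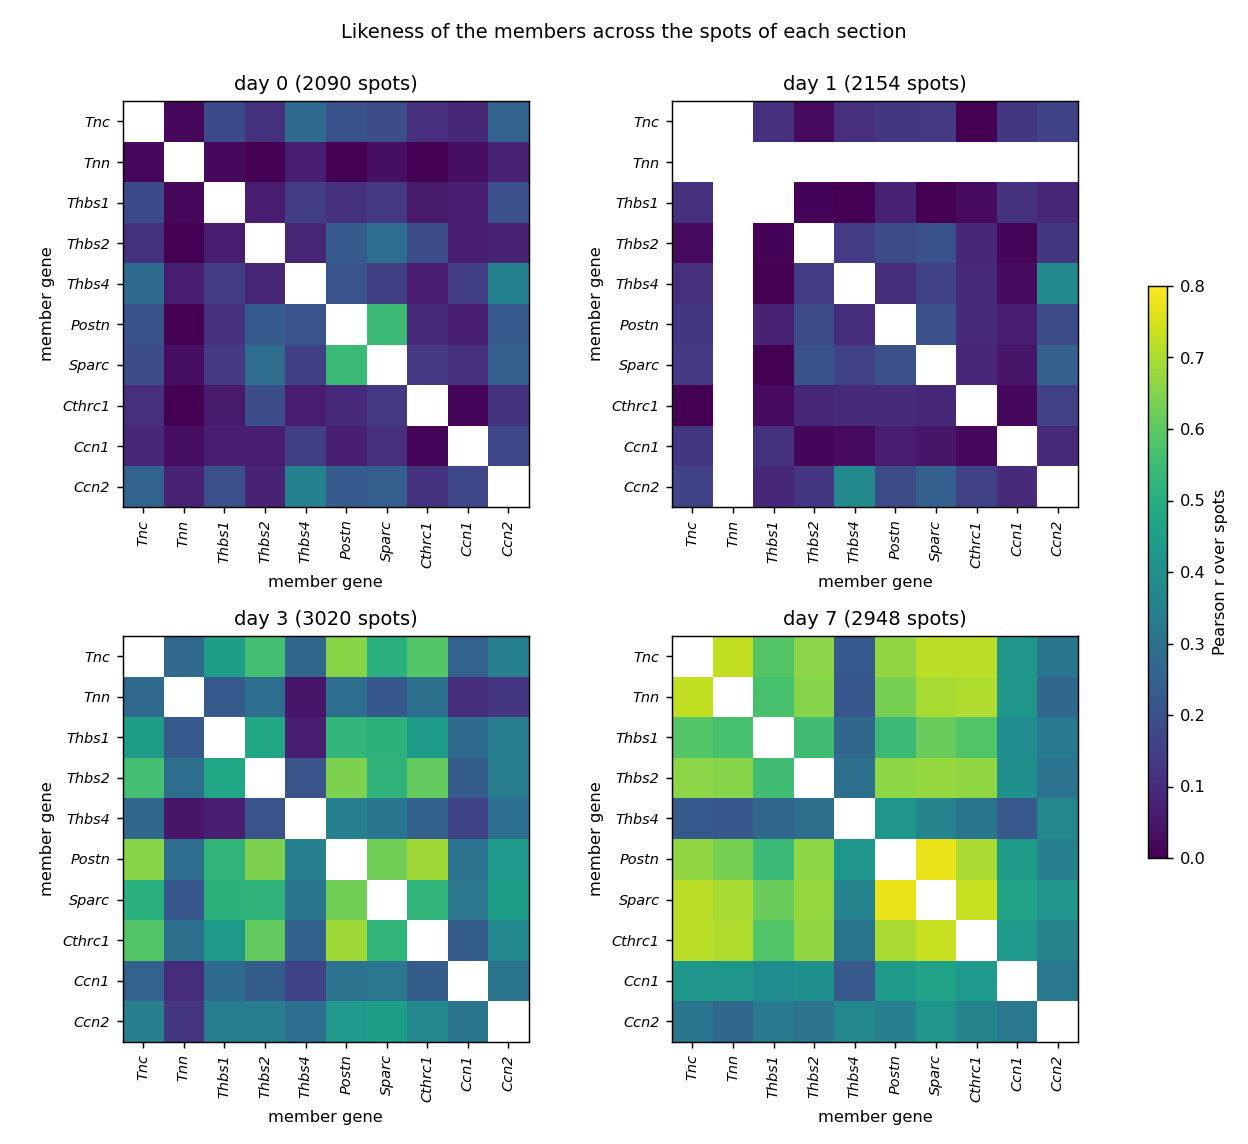
Pearson's r between members over the spots of each section (colour, with values below 0 drawn as 0; the diagonal, and Tnn on day 1, have no value), for days 0, 1, 3 and 7. On day 7 Postn with Sparc reaches 0.78 and Tnc with Tnn 0.73, while the row of Thbs4 stays between 0.22 and 0.42 and that of Ccn2 between 0.26 and 0.42.

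The genes most like each member were read in the section where that member was highest, among genes with at least 500 UMIs there. On day 7 the collagen I genes Col1a1 and Col1a2 were among the first 3 for Tnc, Postn, Sparc, Thbs2 and Cthrc1, with Col1a2 and Sparc at r = 0.89 (0.73 given the myofibre share) and Col1a2 and Tnc at 0.76 (0.50). Col12a1, a collagen of tendon and periosteum, was among the first 3 for Tnc (0.76), Tnn (0.74), Thbs2 (0.69) and Cthrc1 (0.74). The gene most like Tnn was C1qtnf3, a secreted protein of cartilage, with r = 0.75 over 2948 spots. Thbs1 on day 3 was most like Tmsb4x (0.71), Eef1a1 (0.70) and Lyz2 (0.68), of which Lyz2 is a macrophage gene and the others are expressed in most cells, and these r were between 0.21 and 0.23 given the adult myofibre share. Thbs4 on day 3 was most like Cilp (0.53), Mgp (0.51) and Fmod (0.46), matrix genes of tendon and cartilage, and given the myofibre share these were 0.50, 0.52 and 0.46. Ccn1 and Ccn2 on day 3 had no gene above 0.34 and 0.46, with Col3a1 first for both, and given the myofibre share these were 0.15 and 0.24.

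Other genes of the matricellular families moved in both directions. Of 16 such genes with no member among them, 15 could be compared on day 1, where 5 were at least 2-fold higher and 6 at least 2-fold lower than on day 0 (17.8% and 10.7% of all features), with a median log2 ratio of -0.003. On day 3, 8 of 16 were higher and 3 lower (32.4% and 8.66%), and on day 7, 10 of 15 were higher and none lower (32.8% and 2.18%), with a median log2 ratio of 1.58 against 0.65 for all features. Comp, the cartilage thrombospondin, had 1.00, 9.18, 34.4 and 383 CPM on days 0, 1, 3 and 7. Spp1 (osteopontin), made by macrophages and by bone cells, had 0.251, 141, 969 and 96.9 CPM. Tnxb, the tenascin of resting connective tissue, had 99.9, 25.0, 51.8 and 127 CPM, and Sparcl1, the relative of Sparc, had 207, 34.7, 73.9 and 217 CPM. Comp thus resembled Tnn in its last step, Spp1 resembled Thbs1 in its peak on day 3, and Tnxb and Sparcl1 were low on day 1 as Sparc was.

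The receptors of these proteins differed less between days. Of 12 receptor genes, 1 was at least 2-fold higher and 1 at least 2-fold lower on day 1 than on day 0 (17.8% and 10.7% of all features), 6 were higher on day 3 (32.4%) and 8 on day 7 (32.8%), and none was lower on days 3 and 7. Cd47 had 44.8, 67.9, 142 and 91.96 CPM on days 0, 1, 3 and 7, with its highest value on day 3 as for Thbs1. Cd36 had 194, 134, 159 and 145 CPM, with day 0 the highest section. Itgb3, which pairs with Itgav to bind periostin and tenascin-C, had 2.28, 2.86, 1.80 and 9.16 CPM.

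Tnc and Postn shared spots with the integrin gene Itgav more often than the product of their separate shares on days 3 and 7. After thinning to 2000 UMIs, Tnc and Itgav were both found in 2.29% (1.78 to 2.88) of spots on day 3 and 4.89% (4.14 to 5.73) on day 7, 1.37 and 1.33 times the product of their separate shares. Postn and Itgav were both found in 6.49% (5.64 to 7.43) of spots on day 3 and 11.005% (9.88 to 12.2) on day 7, 1.23 and 1.14 times the product. On days 0 and 1 the figures were 1.32 and 1.99 times for Tnc and 1.19 and 1.71 times for Postn. Counting intervals included the product on day 0 for both genes, at 0.096% (0.012 to 0.345) of spots for Tnc and 1.57% (1.09 to 2.21) for Postn. The same held for Postn on day 1, at 0.577% (0.288 to 0.971). Thbs1 and Cd47 were at 1.09, 1.63, 1.40 and 1.27 times the product on days 0, 1, 3 and 7. Thbs1 and Cd36 were at 1.07, 1.70, 1.26 and 0.76 times, below the product on day 7. On day 0 the intervals of both Thbs1 pairs also included the product. These ratios to the product were not adjusted for the adult myofibre share of a spot, unlike r between members. No pair of unrelated genes was set beside them, so how far they are particular to these pairs was not tested. A shared spot holds RNA of several cells and does not show contact between them.

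Genes of pathways known to act on the members were read as well. Of 6 YAP/TEAD targets other than the CCN members, 1 was at least 2-fold higher on day 1, 2 on day 3 and 2 on day 7 than on day 0, near the 17.8%, 32.4% and 32.8% of all features, and none was lower. That 1 gene was Ankrd1, a muscle stress gene, with 2.78 CPM on day 0, 282 on day 1, 233 on day 3 and 35.0 on day 7, and Ankrd1 was also the gene most like Ccn1 over the spots of day 1 (r = 0.31). Of 6 TGF-beta targets, 2 were at least 2-fold higher on day 1, 5 on day 3 and 5 on day 7, none lower, beside the same shares. Among them Ltbp2, a matrix protein of the latent TGF-beta binding protein family, had 0.296, 6.08, 60.9 and 42.9 CPM on days 0, 1, 3 and 7. Of 9 immediate early genes, which respond within minutes of a stimulus, 6 were at least 2-fold higher on day 1, 7 on day 3 and 7 on day 7, none lower, again beside 17.8%, 32.4% and 32.8%. Junb, 1 of them, had 9.46, 64.5, 254 and 78.7 CPM, highest on day 3.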

How the data were processed

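Each deposited table held unnormalised UMI counts for every gene in every spot, which the authors obtained with 10x Genomics pipelines (table headers name Space Ranger 1.2.0, and the labels and methods name other versions) on mm10, per the submitters' processing notes. All 10835 deposited spots were used. Images and spot positions were not used here. As all arrays carry the same barcode set, 1341 barcodes occur in all 4 sections. The 10 members, 13 marker lists, 5 pathway lists and rules were chosen with earlier results of these data known.

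Counts were summed per section and divided by its total (CPM). Folds used features with at least 10 UMIs over the 4 sections, counts under 3 were entered at 3, and features at or under 3 in both sections had no ratio. Intervals were exact, at 95%: Poisson for levels, conditional binomial for ratios, Clopper-Pearson for shares. Thinned shares were hypergeometric expectations. Genes named beside the members were those of the lists and the 3 non-members with the highest r in the section where a member was highest, and other such genes (Ankrd1 beside Ccn1 at day 1) and all other named values were chosen after the values were seen. Alternatives were edgeR 4.0.16 TMM factors, DESeq2 1.42.0 size factors, section totals lacking mitochondrial, haemoglobin and adult myofibre genes, spots of at least 1000 UMIs, all features with at least 1 UMI, thinning to 1000 or 4000 UMIs, the top 5% of spots, a partial r given the myofibre share, and spots of at least 4000 UMIs for r. Calculations were checked on simulated data. The code ran under R 4.3.3 and Python 3.11.15 with pandas 2.3.3, SciPy 1.17.1, NumPy 2.4.6 and matplotlib 3.10.9. The values of 1 gene of the pathway lists are not reported here.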

Additional observations from a re-analysis of the deposited data

Results flagged for a closer look

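Postn and Sparc stood on opposite sides of the day 0 section at different days, by CPM. The log2 ratio of Postn to day 0 was -1.98 on day 1, 2.98 on day 3 and 3.87 on day 7. For Sparc it was -1.69 on day 1, -0.58 on day 3 and 0.97 on day 7. With 1 section per day the difference between days was not tested, and the 3 ratios of a gene share the day 0 section.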

How the results depend on the processing

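No library could be left out, since each day had 1 section, and no paired analysis was possible because the groups share no replicate pairs. Scaling moved sizes more than directions. The count of members at least 2-fold lower on day 3 than on day 0 went from 0 to 1 (Sparc) with TMM factors and with size factors. The median log2 ratio of the members, by TMM factors, size factors and a total lacking mitochondrial, haemoglobin and myofibre genes, was 2.53, 2.52 and 2.73 for day 3 against day 0, 2.95, 2.92 and 3.32 for day 7 against day 0, 2.003, 1.98 and 2.14 for day 3 against day 1, and 0.78, 0.76 and 0.95 for day 7 against day 3. No other count of members 2-fold apart moved by over 1.5 times, but the shares of all features set beside them did: on day 3 against day 0, 19.0% were 2-fold higher and 16.9% lower with TMM factors, and on day 7 against day 0, 15.1% and 6.88%, and on day 3 against day 1, 10.2% and 9.26%. Counting features at or under 3 UMIs in both sections, an alternative chosen after seeing the data, gave 6 in place of 5 higher members on day 1. The added member was Tnn, with 0 UMIs on day 1 and 2 on day 0. With both counts entered at 3, its ratio is only that of the section totals and shows no change of Tnn. Signs turned for Ccn1 on day 3 against day 1 (log2 ratio -0.071 with TMM factors, -0.093 with size factors) and on day 7 against day 3 (0.043 with the other total). In tendon-rich spots of day 3 the other total gave ratios of 0.997 for Thbs2 and 0.856 for Cthrc1, and the top 5% of spots gave 0.815 for Cthrc1. In macrophage-rich spots of day 3 the top 5% gave Thbs4 a ratio of 1.01, and the other total gave Ccn1 0.98. Depth limits the low counts of Tnn and Cthrc1 on days 0 and 1, when day 1 held the fewest UMIs.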
